A study of Daphnia magna with 56 samples.

Results

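After 4 days of gamma irradiation at 1 mGy/h, 63 transcripts of whole Daphnia magna differed from unirradiated animals of the same age, 42 of them higher and 21 lower. The comparison used 8 of the 56 libraries of the series, selected through the labelled dose rate and day. Of these, 4 libraries came from animals at 1 mGy/h and 4 from controls at 0 mGy/h. Both groups were wild-type (WT) females, described as juveniles of 4 days, kept in M7 medium in small static beakers and sampled as whole organisms. The irradiated group had received gamma radiation for those 4 days.

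The whole series held messenger RNA libraries of unirradiated animals and of 6 exposed groups, from 0.4 and 1 through 4 and 10 to 40 and 100 mGy/h, after 4 and 8 days, with 4 libraries in each group. Its title places it in the modelling of the dose at which a molecular response begins. The labels number the replicates but do not say whether they came from separate cultures or how many animals were pooled, so the p-values measure the spread between these libraries, which may be technical. Each entry of the count table is a RefSeq model transcript record, called a transcript here.

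Gamma radiation ionises the molecules it passes through, breaks DNA and forms reactive oxygen species in water, and cells are known to answer with damage signalling, DNA repair, arrest of the cell cycle and antioxidant enzymes. Daphnia magna, the water flea, is a small freshwater crustacean that reproduces by cyclic parthenogenesis, and its juveniles grow through a series of moults. The transcripts carried only locus numbers as symbols, which name no product. None of these responses, and no tissue marker, could therefore be scored by name, and the described stage and sex were not checked against marker genes.

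Depth was even, with total counts of 13285376 to 14243541 over the 28 libraries of day 4. Between 10618 and 10695 transcripts had at least 1 count in the 8 libraries compared. A first principal component of log2 CPM (CPM being counts relative to the TMM-scaled library size) over the 28 libraries held 50.9% of the variance. The controls scored -39.2, -28.5, -35.7 and -25.7 on it, and the 1 mGy/h libraries scored -40.3, -40.6, 39.7 and 36.5. Replicates 1 and 2 at 1 mGy/h thus lay beside the controls, and replicates 3 and 4 lay at the far end of the component. The group means of -1.15 ± 45.4 (SD, n = 4) and -32.3 ± 6.24 (SD, n = 4) gave a 2-sided exact permutation p of 0.429. On the third component, with 8.39% of the variance, the 1 mGy/h libraries averaged 10.8 ± 4.05 and the controls -3.74 ± 4.08 (SD, n = 4 each), with no overlap. A 2-sided exact permutation test gave p = 0.0286, its lowest possible value with 4 libraries a side, and 0.0857 after adjustment over the 3 components tested.

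**Figure D1:**
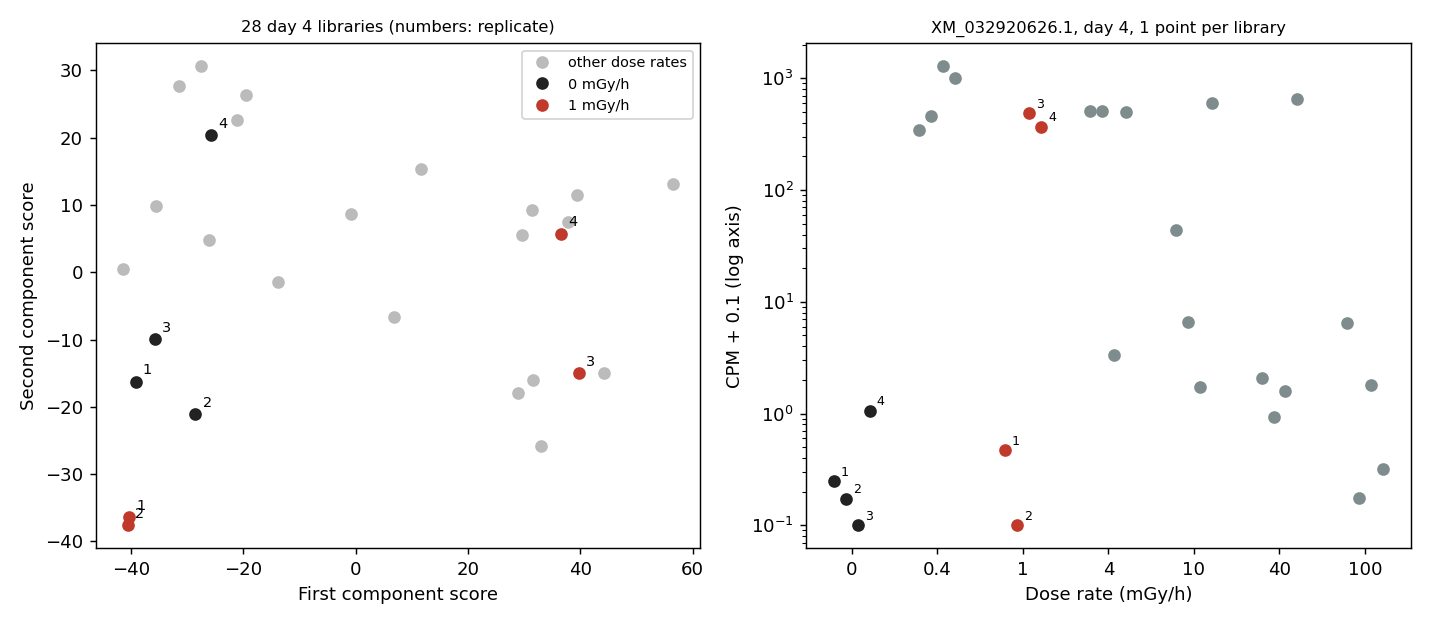
The left panel plots each of the 28 day 4 libraries by its first and second component score of log2 CPM, with the 0 mGy/h libraries in black, the 1 mGy/h libraries in red and replicate numbers beside them. The right panel plots the level of XM_032920626.1 (CPM plus 0.1, log axis) by dose rate, 1 point per library, and shows replicates 3 and 4 at 1 mGy/h at 486 and 370 CPM while replicates 1 and 2 and the 4 controls lie under 1 CPM.

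Of the 9369 transcripts tested, 0.672% were called at 1 against 0 mGy/h, meaning an edgeR adjusted p-value under 0.05. The rises were 0.448% of the transcripts tested and the falls 0.224%. Whole animals were sequenced, so for every transcript fewer cells of a type and less RNA per cell cannot be told apart. The median log2 fold change was 0.50 for the rises and -0.21 for the falls, and 0.01 over all transcripts tested. Most changes were small. Among the calls, 5 were at least 2-fold higher, 1 was at least 2-fold lower and 21 changed by less than 1.2-fold. The called transcripts had a median level of 99.4 CPM over the 8 libraries, and all tested transcripts had a median of 29.6 CPM. The 4 libraries of one group lay wholly above or below the 4 of the other for 61 of the 63, and for 8.73% of all transcripts tested. The other two, XM_032921817.1 and XM_032932085.1, both fell and are named here after their values were seen. The calls named by rule below had to be among the 61, so their lack of overlap was set by the choice.

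Larger changes were often not called. Without regard to any test, the group means of 4.75% of the tested transcripts differed at least 2-fold in the fit, while an unadjusted p-value under 0.05 was reached by 15%, or 1408. The count of 63 depended on the method and on single libraries. It was 233 with DESeq2, 25 with surrogate variables and 29 with only the libraries of the 2 groups in the edgeR fit. Among the fits that left out 1 library, it was 29 without control replicate 4, 34 without control replicate 1, 33 without 1 mGy/h replicate 1 and 40 without 1 mGy/h replicate 3.

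**Figure D2:**
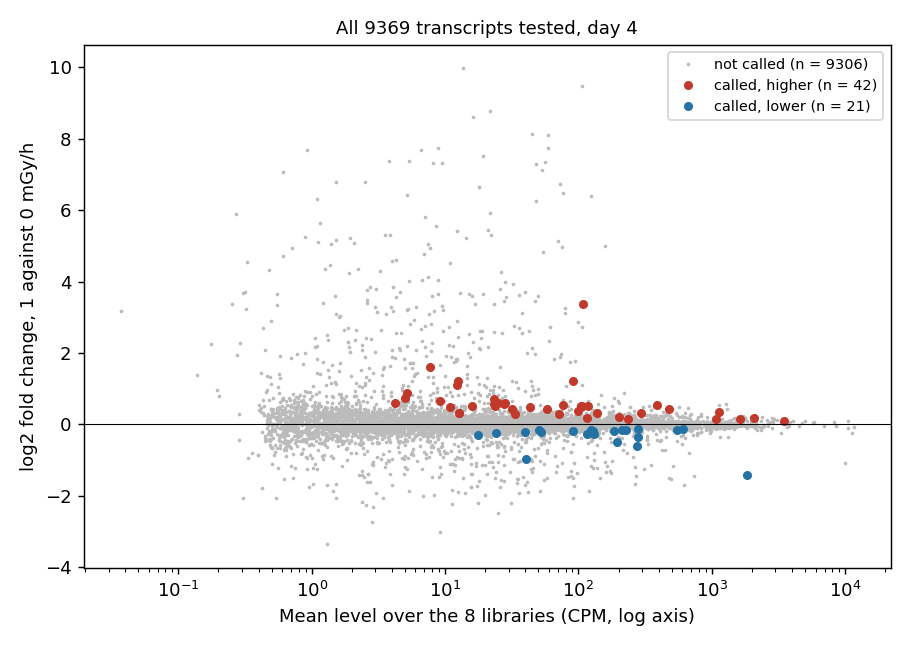
Each point is 1 of the 9369 tested transcripts, placed by its mean level over the 8 libraries (CPM, log axis) and its log2 fold change at 1 against 0 mGy/h on day 4. The 42 called rises are red and the 21 called falls are blue, and many uncalled grey points lie farther from 0 than the called ones.

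The largest rise was that of XM_032921579.1 (LOC116916360). It stood at 19.6, 15.96, 18.3 and 22.2 CPM in the controls and at 208, 192, 210 and 174 CPM at 1 mGy/h. Every irradiated library was far above every control. The mean rose 10.3-fold, from 19.0 ± 2.61 to 196 ± 16.8 CPM (SD, n = 4 each), or 3.36 on the log2 scale (SE 0.19, edgeR adjusted p = 7.81e-11). At the other 5 dose rates its libraries lay between 9.92 and 26.6 CPM, a range that holds the control level. Against the mean of those 5 groups the 1 mGy/h level was higher by 3.47 on the log2 scale (SE 0.11, edgeR adjusted p = 3.39e-16).

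XM_032937702.1 (LOC116930306) showed the same shape at a lower level. The controls had 6.89, 7.72, 8.32 and 8.20 CPM, and the 1 mGy/h libraries had 15.4, 16.6, 18.9 and 16.7 CPM. The groups did not overlap, and the mean rose 2.17-fold (log2 fold change 1.12, SE 0.08, edgeR adjusted p = 7.46e-09). The means at the other dose rates ran from 7.15 ± 0.79 CPM at 40 mGy/h to 8.73 ± 0.57 CPM at 100 mGy/h (SD, n = 4 each). Against them the 1 mGy/h level was higher by 1.13 on the log2 scale (SE 0.06, edgeR adjusted p = 6.31e-12).

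Among the calls with the lowest adjusted p-values were 3 modest rises of nearly equal size. XM_032936356.1 (LOC116929203) was at 84.7, 85.2, 91.4 and 85.4 CPM in the controls and at 118, 125, 124 and 123 CPM at 1 mGy/h, a log2 rise of 0.50 (SE 0.04, edgeR adjusted p = 2.50e-08). XM_032941560.1, which has no symbol, was at 35.9, 36.9, 36.6 and 34.4 CPM in the controls and at 49.0, 49.1, 50.8 and 51.7 CPM at 1 mGy/h, a log2 rise of 0.48 (SE 0.04, edgeR adjusted p = 1.55e-07). XM_032922736.1 (LOC116917287) was at 48.2, 48.4, 52.3 and 49.9 CPM in the controls and at 65.2, 66.4, 68.0 and 68.8 CPM at 1 mGy/h, a log2 rise of 0.43 (SE 0.04, edgeR adjusted p = 7.77e-08). In each of them the lowest irradiated library was well above the highest control. All 3 were also higher at 1 mGy/h than in the mean of the other 5 exposed groups, by 0.42, 0.41 and 0.35 on the log2 scale (SE 0.03 each, largest edgeR adjusted p = 2.13e-08).

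The fall with the lowest adjusted p-value was that of XM_032938532.1, which has no symbol. Its controls had 226, 218, 234 and 232 CPM, and its 1 mGy/h libraries had 159, 162, 162 and 161 CPM. The irradiated libraries lay within a few CPM of each other and below every control, and the level fell by 0.50 on the log2 scale (SE 0.03, edgeR adjusted p = 1.12e-10). The means of the other exposed groups ran from 197 ± 4.26 CPM at 4 to 223 ± 3.78 CPM at 100 mGy/h (SD, n = 4 each). The 4 mGy/h group was itself below the controls, by a log2 difference of -0.21 (SE 0.03, edgeR adjusted p = 0.00202), and the 1 mGy/h group was lower again than 4 mGy/h, by a log2 difference of -0.29 (SE 0.03, adjusted p = 3.40e-06).

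**Figure D3:**
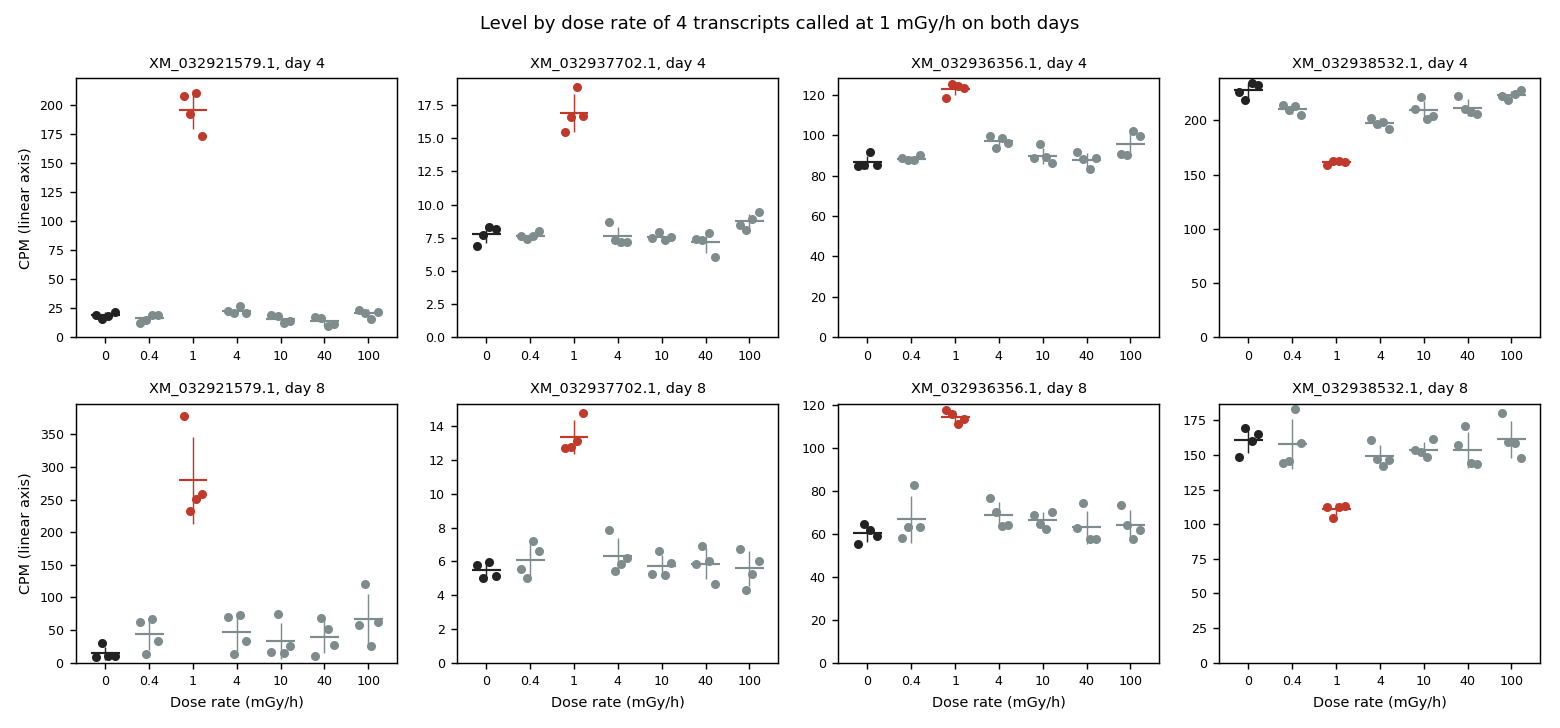
Levels (CPM, linear axis from 0) of 4 transcripts by dose rate on day 4 (upper panels) and day 8 (lower panels), with 1 point per library, the group mean as a horizontal line and the SD as a vertical line. The 1 mGy/h libraries, in red, stand apart from the 0 mGy/h libraries, in black, on both days, as with XM_032938532.1 at 159 to 162 CPM against 218 to 234 CPM on day 4.

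The other 3 rises of at least 2-fold were of transcripts whose levels also varied between the other dose rates. XM_032932442.1 (LOC116925712) was at 2.82, 3.16, 5.97 and 3.17 CPM in the controls and at 9.82, 8.80, 17.4 and 10.4 CPM at 1 mGy/h, where replicate 3 was the highest library of either group. It rose by 1.62 on the log2 scale (SE 0.26, edgeR adjusted p = 0.00189) and stood above the other exposed groups by 1.23 (SE 0.18, adjusted p = 0.000402). The annotation places it directly beside XM_032932441.1 (LOC116925711), with 0 genes between them. That neighbour was at 54.0, 48.6, 57.3 and 59.3 CPM in the controls and at 122, 127, 152 and 105 CPM at 1 mGy/h, with replicate 3 again the highest, and it rose by 1.21 (SE 0.20, edgeR adjusted p = 0.00194). For the neighbour the 10 mGy/h mean of 141 ± 19.8 CPM (SD, n = 4) stood beside a 1 mGy/h mean of 126 ± 19.5 CPM (SD, n = 4), and the difference from the other exposed groups was not called (log2 difference 0.45, SE 0.14, edgeR adjusted p = 0.0992). How reads shared by neighbouring records were counted is not given in the sources used here.

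XM_032932645.1 (LOC116925883) was at 6.38, 8.75, 8.25 and 6.79 CPM in the controls and at 19.3, 15.5, 20.3 and 15.3 CPM at 1 mGy/h, a log2 rise of 1.22 (SE 0.14, edgeR adjusted p = 1.13e-05). Its levels were spread over the dose rates, with means of 10.4 CPM at 0.4, 16.1 at 4, 16.4 at 10, 12.3 at 40 and 10.7 at 100 mGy/h. The 1 mGy/h level exceeded that at 0.4 mGy/h by 0.75 on the log2 scale (SE 0.14, edgeR adjusted p = 0.00835). It was not told apart from that at 4 mGy/h, with a log2 difference of 0.13 (SE 0.14, adjusted p = 0.788).

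The 5 remaining rises among the 10 largest had log2 fold changes of 0.59 to 0.88. XM_032929901.1 (LOC116923437) went from 3.62 ± 0.60 to 6.68 ± 0.62 CPM (SD, n = 4 each), and its mean was higher still at 0.4 mGy/h, at 7.63 ± 1.95 CPM (SD, n = 4). It was called against the controls at 0.4 and 10 mGy/h too, with log2 differences of 1.07 and 1.04 (edgeR adjusted p = 0.0154 and 0.0122). At 4, 40 and 100 mGy/h it was not called. XM_032941158.1, with no symbol, went from 3.76 ± 0.81 to 6.29 ± 0.68 CPM, and XM_032937036.1 (LOC116929704) from 17.6 ± 1.30 to 28.9 ± 2.96 CPM (SD, n = 4 each). XM_032924511.1 (LOC116918760) went from 7.19 ± 1.26 to 11.3 ± 0.40 CPM and XM_032922713.1 (LOC116917276) from 19.8 ± 0.89 to 30.0 ± 1.62 CPM (SD, n = 4 each). XM_032924511.1 was also called against the controls at 4 mGy/h (log2 difference 0.62, edgeR adjusted p = 0.0145), but not at 0.4, 10, 40 or 100 mGy/h. Non-overlap of the groups was required for naming, and the edgeR adjusted p-values of the 5 ran from 0.00194 to 0.0233. Of the 5, XM_032941158.1 was also called against the mean of the other 5 exposed groups, at an adjusted p of 0.0495. Leaving out 1 library ended the call of XM_032929901.1 in 4 of 8 cases and that of XM_032937036.1 in 5 of 8. Fitting only the libraries of the 2 groups ended the calls of XM_032929901.1, XM_032941158.1 and XM_032924511.1, and also that of XM_032932442.1.

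The largest fall was that of an abundant transcript, XM_032921847.1 (LOC116916592). Its controls stood at 2966, 2133, 3174 and 2491 CPM, and its 1 mGy/h libraries at 765, 938, 1372 and 930 CPM. The highest irradiated library was below the lowest control, but the spread was wide in both groups. The mean went from 2691 ± 469 to 1001 ± 259 CPM (SD, n = 4 each), a fall of 1.43 on the log2 scale (SE 0.32, edgeR adjusted p = 0.0351). The 10 mGy/h mean of 1077 ± 377 CPM was close by, and the 100 mGy/h mean of 3920 ± 951 CPM was above the controls (SD, n = 4 each). Neither of those groups was called against the controls (edgeR adjusted p = 0.0649 and 0.661). The call at 1 mGy/h was lost under 9 of 16 alternatives, 6 of them fits with 1 library left out, with an adjusted p of up to 0.216.

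XM_032926812.1, with no symbol, was at 54.0, 48.4, 46.7 and 63.9 CPM in the controls and at 32.0, 21.8, 30.1 and 25.4 CPM at 1 mGy/h, and it fell by 0.96 on the log2 scale (SE 0.17, edgeR adjusted p = 0.00334). XM_032939945.1 (LOC116932163) was at 302, 308, 357 and 352 CPM in the controls and at 214, 216, 224 and 208 CPM at 1 mGy/h, and it fell by 0.61 (SE 0.12, edgeR adjusted p = 0.0177). In both, the controls lay wholly above the irradiated libraries, as the naming rule required. The difference from the other exposed groups was not called in either (log2 differences -0.47 and -0.29, edgeR adjusted p = 0.0691 and 0.126). For XM_032939945.1 the 10 mGy/h libraries averaged 215 ± 24.0 CPM and the 1 mGy/h libraries 215 ± 6.32 CPM (SD, n = 4 each). Both lost their calls against the controls with surrogate variables (edgeR adjusted p = 0.0589 for XM_032926812.1 and 0.0881 for XM_032939945.1), and XM_032939945.1 also in 3 of the 8 fits with 1 library left out.

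The other 6 falls named by size were shallower, with log2 fold changes of -0.34 to -0.22. XM_032936355.1 (LOC116929202) was at 149, 133, 150 and 139 CPM in the controls and at 118, 116, 118 and 118 CPM at 1 mGy/h, a log2 change of -0.28 (SE 0.03, edgeR adjusted p = 2.96e-05). Its irradiated libraries were almost level, and it was also lower than in the other exposed groups (log2 difference -0.27, SE 0.03, adjusted p = 9.27e-07). XM_032932431.1 (LOC116925673) went from 126 ± 8.08 to 105 ± 3.11 CPM (SD, n = 4 each) and was also lower than in the other exposed groups (log2 difference -0.22, SE 0.04, edgeR adjusted p = 0.000956). It was below the controls at 10 mGy/h as well, by a log2 difference of -0.24 (SE 0.04, edgeR adjusted p = 0.0132). At 100 mGy/h the same transcript was above the controls, by 0.21 on the log2 scale (SE 0.04, edgeR adjusted p = 0.0165). Its call at 1 mGy/h was lost with only the libraries of the 2 groups in the fit (edgeR adjusted p = 0.109). XM_032921729.1 (LOC116916477), from 310 ± 23.3 to 245 ± 7.28 CPM, was lower against the controls at 0.4 and 4 mGy/h too (edgeR adjusted p = 0.00710 and 0.0172). Its call at 1 mGy/h was lost under 3 of 16 alternatives, with an adjusted p of up to 0.167. The last 3, XM_032940928.1, XM_032921304.1 (LOC116916110) and XM_032922873.1 (LOC116917411), lost their calls under 7, 14 and 11 of the 16 alternatives.

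Beside XM_032921847.1, the named calls with the highest mean level were 3 small rises. XM_032935550.1 (LOC116928462) was at 1938, 1846, 2006 and 2024 CPM in the controls and at 2160, 2202, 2215 and 2181 CPM at 1 mGy/h, a log2 rise of 0.16 (SE 0.03, edgeR adjusted p = 0.00194). XM_032936352.1 (LOC116929200) was at 1534, 1491, 1592 and 1539 CPM in the controls and at 1677, 1749, 1719 and 1709 CPM at 1 mGy/h, a log2 rise of 0.16 (SE 0.03, edgeR adjusted p = 0.00238). These are rises of 12.1% and 11.4%. Both were also called against the mean of the other 5 exposed groups (edgeR adjusted p = 0.000389 and 0.000651). XM_032942322.1 (LOC116934894), the most abundant of the named calls, went from 3325 ± 32.0 to 3570 ± 82.7 CPM (SD, n = 4 each), a log2 rise of 0.10 (SE 0.02, edgeR adjusted p = 0.0293). Its call was lost under 12 of 16 alternatives. XM_032935550.1 and XM_032936352.1 lost theirs in 1 case each, when the fit held the 8 libraries of the 2 groups and no others (edgeR adjusted p = 0.134 and 0.0964).

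The 37 called transcripts not named by rule were 26 rises with log2 fold changes of 0.16 to 0.59 and 11 falls with log2 fold changes of -0.21 to -0.13. Of all 63 calls, 44 had a symbol, and none shared its symbol with another record of the table. Among the 43 with a position in the annotation, 14 overlapped another annotated gene, 7 of them named by rule. These 7 were XM_032932645.1, XM_032929901.1, XM_032924511.1, XM_032936356.1, XM_032922736.1, XM_032922873.1 and XM_032921304.1. XM_032929703.1 and XM_032936344.1, described here outside that rule, overlapped another gene as well. Whether the counting used strand is not given in the sources used here, so reads of overlapping genes cannot be told apart for any of the 14. The share of all tested transcripts that overlap another gene is not given here.

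**Figure D4:**
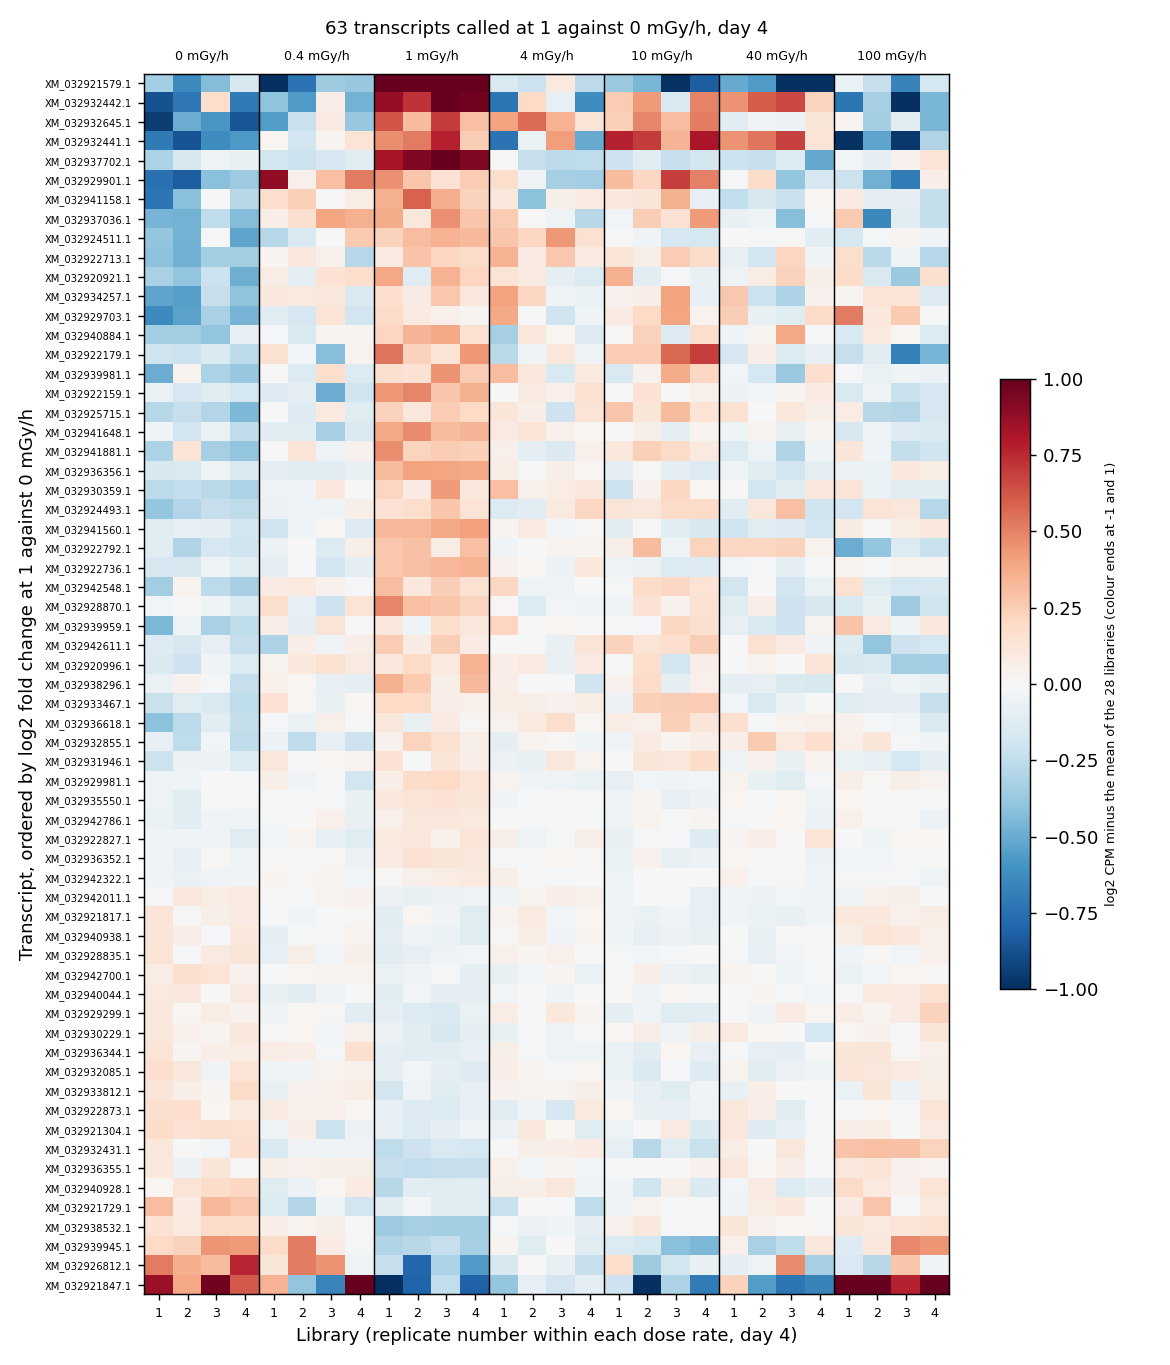
Rows are the 63 called transcripts, ordered by log2 fold change at 1 against 0 mGy/h, and columns are the 28 day 4 libraries by dose rate and replicate. Colour gives log2 CPM minus the transcript's mean over the 28 libraries, with the colours ending at -1 and 1. On average, the 1 mGy/h columns are redder than the controls in the upper 42 rows and bluer in the lower 21. The choice and order of the rows by this contrast set that pattern.

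To find how far the calls belonged to 1 mGy/h, that group was compared with the other exposed groups. These comparisons share the 1 mGy/h libraries with the main one. Against 0.4 mGy/h, the next lower dose rate, 34 transcripts (0.363%) were called, 24 of them higher. Against 4 mGy/h, the next higher, 45 (0.48%) were called, 37 of them higher. Against the mean of the other 5 exposed groups, 153 (1.63%) were called, 92 of them higher at 1 mGy/h and 61 lower. These counts moved with single libraries. The count of 34 was 19 without 1 mGy/h replicate 2 and 73 without its replicate 3. The count of 45 was 20, 16 and 121 without 1 mGy/h replicate 1, 2 or 3, and 156, 16, 26 and 16 without 4 mGy/h replicate 1, 2, 3 or 4. The count of 153 was 24, 27 and 52 without 1 mGy/h replicate 1, 2 or 4, and 252 and 94 without 4 mGy/h replicate 1 or 2. It was 101 without 0.4 mGy/h replicate 3, 96 and 101 without 10 mGy/h replicate 1 or 4, and 96 and 272 without 40 mGy/h replicate 1 or 4.

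Of the 63 transcripts called against the control, 23 were also called against the mean of the other 5 exposed groups in the same direction, 19 of them higher and 4 lower, where 0.982% of all tested transcripts were higher and 0.651% lower. Of these 23, 13 were called against 0.4 mGy/h and against 4 mGy/h as well. The remaining 40 were not called against the other exposed groups. The 1 mGy/h mean was the highest or lowest of the 7 group means for 48 of the 63, and for 32.4% of all transcripts tested. By direction, 30 of 42 rises had their highest mean at 1 mGy/h, as did 17.1% of all transcripts tested, and 18 of 21 falls had their lowest, as did 15.3%. These counts reuse the 1 mGy/h values by which the 63 were called. Shares above those of all transcripts were therefore favoured in advance.

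Some called transcripts also stood above the controls at other dose rates, though not all of those differences were called. XM_032936618.1, chosen after its values were seen and with no symbol, averaged 63.9 ± 5.55 CPM in the controls and 77.9 ± 4.34 CPM at 1 mGy/h, and between 74.3 and 82.7 CPM in the other exposed groups. Its 1 mGy/h level did not differ detectably from their mean (edgeR adjusted p = 0.973). XM_032929703.1 (LOC116923228), also chosen after its values were seen, averaged 18.8 ± 1.75 CPM in the controls, 28.1 ± 1.48 CPM at 1 mGy/h (SD, n = 4 each) and between 24.9 and 31.0 CPM in the other exposed groups (edgeR adjusted p = 0.997 for 1 mGy/h against their mean). It was called against the controls at 10 and 100 mGy/h (edgeR adjusted p = 0.0124 and 0.00236). At 0.4, 4 and 40 mGy/h it was not (edgeR adjusted p = 0.0916, 0.126 and 0.0530). XM_032922713.1 was above the controls by 0.60 on the log2 scale at 4 mGy/h and by 0.56 at 10 mGy/h (SE 0.10 each, edgeR adjusted p = 0.0121 and 0.0122), beside 0.59 at 1 mGy/h. At 0.4, 40 and 100 mGy/h its log2 differences were smaller, at 0.38, 0.38 and 0.30. Those were not called (edgeR adjusted p = 0.0678, 0.126 and 0.227). These contrasts share the 4 control libraries.

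A second pair of groups, 0 and 1 mGy/h on day 8, gave the same contrast in libraries of their own, from animals described as juveniles of 8 days. The labels do not say whether animals of the same dose rate on days 4 and 8 came from separate cultures. There, 24 of 9367 transcripts (0.256%) were called. Of the 63 day 4 calls, 8 were called on day 8 as well, all in the same direction, which is 12.7% of the day 4 calls and 33.3% of the day 8 calls. They were XM_032921579.1, XM_032937702.1, XM_032936356.1, XM_032941560.1, XM_032922736.1, XM_032938532.1 and, named after their values were seen, XM_032922159.1 and XM_032941648.1. Without control replicate 3 or control replicate 4 of day 8, 5 of the 8 remained.

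XM_032921579.1 stood on day 8 at 8.50, 29.8, 10.1 and 9.46 CPM in the controls and at 378, 232, 250 and 259 CPM at 1 mGy/h. Again each irradiated library was far above each control, and the log2 rise was 4.28 (SE 0.73, edgeR adjusted p = 0.00665). The other dose rates were more variable than on day 4, with libraries from 10.8 to 120 CPM, all below the lowest 1 mGy/h library. XM_032937702.1 had controls at 5.80, 5.02, 5.99 and 5.16 CPM and 1 mGy/h libraries at 12.7, 12.8, 13.2 and 14.8 CPM on day 8. Its rise of 1.28 on the log2 scale (SE 0.15, edgeR adjusted p = 2.69e-05) was close to the 1.12 of day 4. XM_032938532.1 fell on day 8 from 149, 170, 160 and 165 CPM to 113, 104, 113 and 113 CPM, by 0.54 on the log2 scale (SE 0.08, edgeR adjusted p = 0.000544), beside 0.50 on day 4.

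The 2 transcripts outside the naming rule were both rises of middle size. XM_032922159.1 was at 101, 94.6, 98.1 and 93.8 CPM in the day 4 controls and at 143, 149, 129 and 136 CPM at 1 mGy/h, with log2 rises of 0.52 and, on day 8, 0.38 (edgeR adjusted p = 4.34e-05 and 0.00927). XM_032941648.1 was at 93.8, 85.0, 92.3 and 81.4 CPM in the day 4 controls and at 127, 134, 121 and 123 CPM at 1 mGy/h, with log2 rises of 0.52 and 0.31 (edgeR adjusted p = 1.42e-06 and 0.0410). In both, the irradiated libraries lay wholly above the controls on day 4. With the exception of XM_032941648.1, whose day 8 adjusted p was 0.0613, the 8 were also called against the mean of the other 5 exposed groups on both days. That comparison, added for day 8 after the data were seen, called 53 transcripts (0.566%).

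Beyond the calls, 47 of the 63 had the same direction on day 8, or 74.6%, against 55.7% of the 9202 transcripts tested on both days. By direction, 38 of the 42 rises were higher on day 8, and 9 of the 21 falls were lower, a difference that was not tested. The higher share among the 63 thus came from the rises. Shares by direction over all transcripts are not given here. An unadjusted p-value under 0.05 in the same direction was reached on day 8 by 25 of the 63, and in either direction by 9.49% of all transcripts.

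**Figure D5:**
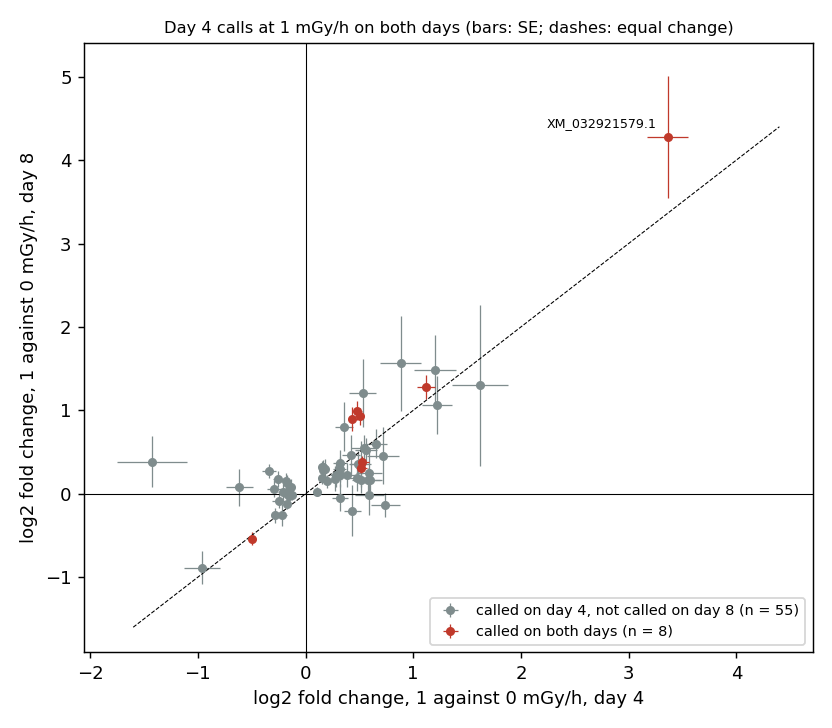
Each point is 1 of the 63 day 4 calls, placed by its log2 fold change at 1 against 0 mGy/h on day 4 (horizontal) and on day 8 (vertical), with SE bars, and the dashed line marks equal change. The 8 called on both days are red, with XM_032921579.1 at 3.36 and 4.28, and the leftmost point is XM_032921847.1 at -1.43 on day 4 and 0.38 on day 8.

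The difference between the days was tested as an interaction in the 16 libraries at 0 and 1 mGy/h. Of 9314 transcripts, 16 (0.172%) were called, 5 of them among the 63. For 3 of these the rise was larger on day 8, by 0.44 on the log2 scale for XM_032936356.1 (SE 0.07), 0.47 for XM_032922736.1 (SE 0.06) and 0.53 for XM_032941560.1 (SE 0.08), each with an edgeR adjusted p of 0.0185. Their day 8 rises were 0.93, 0.89 and 1.00 on the log2 scale (SE 0.10, 0.14 and 0.11). In CPM, the day 8 controls of XM_032936356.1 were at 55.2, 64.5, 61.8 and 59.0 and its 1 mGy/h libraries at 117, 116, 111 and 114. The control mean of each of the 3 was lower on day 8 than on day 4, for XM_032941560.1 at 17.5 ± 1.57 against 35.9 ± 1.10 CPM (SD, n = 4 each). On day 4 the group means of XM_032936356.1 were 86.7 CPM in the controls and 123 CPM at 1 mGy/h. The controls were unirradiated on both days. For the effect of 1 mGy/h, age and length of exposure cannot be told apart.

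The other two were falls on day 4 that were not falls on day 8. XM_032921847.1 averaged 12889 CPM in the day 8 controls and 16798 CPM at 1 mGy/h, where the contrast was not called (log2 fold change 0.38, SE 0.31, edgeR adjusted p = 0.595). Its effect differed between days by 1.82 (SE 0.26, edgeR adjusted p = 0.0185). XM_032921729.1 had log2 fold changes of -0.34 at 4 days and 0.27 at 8 days (SE 0.09 and adjusted p = 0.407 at 8 days by edgeR), a difference of 0.63 (SE 0.10, edgeR adjusted p = 0.0316). The edgeR count of 16 was 0 without control replicate 3 of day 4 (1046 at an unadjusted p under 0.05), without 1 mGy/h replicate 1 of day 4 (1084) and without control replicate 4 of day 8 (1053). It reached 211 without 1 mGy/h replicate 3 of day 8, and DESeq2 with all 16 libraries called 244. It was 6, 9 and 9 without control replicate 1, 2 or 4 of day 4, and 7, 3 and 2 without 1 mGy/h replicate 2, 3 or 4 of day 4. It was 8 and 28 without control replicate 1 or 2 of day 8, and 1 without 1 mGy/h replicate 4 of day 8.

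Some of the called transcripts lay close together in the annotation. Among the 43 with a position, 7 pairs had at most 10 genes between them. The share of such pairs among all tested transcripts is not given here, so the pairs are not read as clustering. One stretch held 4 calls and gave most of the pairs. XM_032936352.1 and XM_032936356.1 were next to each other and both rose, by 0.16 and 0.50 on the log2 scale. XM_032936355.1, with 1 gene between it and XM_032936356.1, fell by 0.28. XM_032936344.1 (LOC116929193), 9 genes from XM_032936352.1 and named after its values were seen, went from 196 to 173 CPM as group means and fell by 0.18 (SE 0.04, edgeR adjusted p = 0.0223). The stretch thus held rises and falls, and 3 tested transcripts inside it were not called, with log2 differences of -0.21 to 0.05. XM_032932645.1 and XM_032924511.1, with 8 genes between them, both rose, and the 3 tested transcripts between them had log2 differences of 0.02 to 0.09 that were not called.

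The transcripts that varied most between the 1 mGy/h libraries were not among the calls. At 1 mGy/h, 444 transcripts (4.74%) had an SD of at least 1 on the log2 CPM scale, and 121 (1.29%) did in the controls. The other exposed groups also exceeded the controls, with 2.49% at 0.4, 4.33% at 4, 3.69% at 10, 3.10% at 40 and 2.78% at 100 mGy/h. The median SD was 0.102 at 1 mGy/h and 0.099 in the controls. Of the 63 calls, 0 had an SD of at least 1 at 1 mGy/h or in the controls. A wide spread within a group makes a call unlikely, so the calling rule itself favoured this outcome. The 3 with the largest SD among transcripts with a mean of at least 50 counts are described without a test. XM_032920626.1 (LOC116915470) was at 0.15, 0.07, 0 and 0.96 CPM in the controls and at 0.37, 0, 486 and 370 CPM at 1 mGy/h. XM_032920642.1 (LOC116915484) was at 0.59, 0.59, 0.43 and 0.59 CPM in the controls and at 0.22, 0.15, 215 and 257 CPM at 1 mGy/h. XM_032939186.1 (LOC116931589) was at 0.37, 0.37, 0.50 and 0.44 CPM in the controls and at 0.37, 0.30, 278 and 192 CPM at 1 mGy/h.

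In all 3, replicates 3 and 4 at 1 mGy/h were high and replicates 1 and 2 were as low as the controls, the same division as on the first component. The 3 were picked for their spread among libraries that also entered that component, so the match was favoured by the choice. The 4 libraries at 0.4 mGy/h were all high for XM_032920626.1, at 343, 461, 1281 and 1006 CPM, while at 40 mGy/h replicate 4 was at 657 CPM and the others were at 1.96, 0.84 and 1.5 CPM. On day 8 the controls had 1114, 1590, 11.6 and 768 CPM of this transcript. The 1 mGy/h libraries of day 8 had 3216, 686, 868 and 2273 CPM. An edgeR fit with 3 surrogate variables, which stand for differences between libraries that the dose rates leave unexplained, called 25 of the 63. The part of this division itself in the day 4 calls was not tested.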

How the data were processed

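Whole-animal messenger RNA was sequenced with paired 100 bp reads from DNA nanoballs, per the labels' protocols. The values are read counts deposited by the authors, 1 whole-number table per day with 23570 RefSeq records and 28 libraries, not normalized. The submitters' processing notes name HISAT, an aligner, with no version or role. The counting program, the genome build, the use of strand and the treatment of shared reads are not given in the sources used here. Columns were matched to libraries by the codes in the labels, and no pair among the 8 libraries had a chi-square below 8.15 per degree of freedom, so all were kept as separate samples.

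Counts were tested in R 4.3.3 with edgeR 4.0.16: filterByExpr, TMM factors, and a quasi-likelihood fit of all 28 day 4 libraries with a coefficient per dose rate, which share 1 estimate of spread (common biological coefficient of variation 0.233). Tests were 2-sided, with Benjamini-Hochberg adjustment over all transcripts tested and calls at an adjusted p under 0.05. SE is |log2 fold change| over the root of the F statistic. CPM uses TMM-scaled library sizes, and log2 CPM a prior count of 2. Day 8 was fitted likewise, and the interaction in the 16 libraries at 0 and 1 mGy/h. The models were tested on simulated data. Alternatives were RLE factors, library totals, no filter, DESeq2 1.42.0, surrogate variables (sva 3.50.0), a replicate block, the compared groups alone, the smaller library-size class and leaving out each library.

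Named transcripts were called, averaged 50 counts or more in the 8 libraries and did not overlap between groups: the 10 largest rises, the 10 largest falls, then, among those not yet named, the 3 lowest adjusted p-values and the 3 most abundant, plus, without a test, the 3 with the largest SD at 1 mGy/h. Members and lists were chosen with earlier results of these data known. Symbols and gene order came from the RefSeq table of assembly ASM2063170v1.1, where 14015 records (59.5%) matched with the version ignored and 101 with it. That table gave no descriptions, so the planned gene lists, cell markers and sequence features were not formed.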

Additional observations from a re-analysis of the deposited data

Results flagged for a closer look

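In 7 of 58 groups of 4 libraries, for the 29 named transcripts on day 4, 1 library stood apart from the other three by Dixon's test, where chance gives about 1 in 20, or 2.9. Control replicate 3 was high for XM_032932442.1, at 5.97 CPM against a nearest value of 3.17, and for XM_032936356.1, at 91.4 against 85.4 CPM, and low for XM_032920642.1, at 0.43 against 0.59 CPM. Control replicate 4 was high for XM_032920626.1, at 0.96 against 0.15 CPM. At 1 mGy/h, replicate 2 was high for XM_032921729.1, at 255 against 242 CPM, and low for XM_032936355.1, at 116 against 118 CPM. Replicate 1 at 1 mGy/h was low for XM_032940928.1, at 14.5 against 16.2 CPM.

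The effect of 1 mGy/h differed between the days, by edgeR's interaction test, for 5 of the 63 transcripts called on day 4. The day 8 effect exceeded the day 4 effect on the log2 scale by 1.82 for XM_032921847.1, 0.63 for XM_032921729.1, 0.44 for XM_032936356.1, 0.47 for XM_032922736.1 and 0.53 for XM_032941560.1.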

How the results depend on the processing

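With day 4 counts of 63 (against 0 mGy/h), 34 (0.4 mGy/h), 45 (4 mGy/h) and 153 (mean of the other 5), DESeq2 gave 233, 84, 250 and 393, and 244 for the interaction, where edgeR gave 16. Surrogate variables gave 25 against 0 mGy/h, all among the 63, 16 against 4 mGy/h and 20 against the other 5. With only the 2 groups compared in the fit, the counts were 29, 10 and 6 against 0, 0.4 and 4 mGy/h. The interaction count was 2, both higher, with library totals, which shift the median of all transcripts by -0.14 on the log2 scale, and 10 without the filter. Transcripts called on both days numbered 8, but 14 with DESeq2 and, with library totals, 8 of which 5 were higher and 3 lower. Same-numbered control and 1 mGy/h libraries had deviations correlated at r of 0.44, 0.03, -0.08 and 0.57, and differently numbered ones at r of -0.47 to 0.42. Whether replicate numbers pair the samples was not settled, and the main fit did not pair them. With a replicate block, the counts were 54 against 0 mGy/h, 32 against 0.4, 27 against 4, 205 against the other 5 and 3 for the interaction. Leaving out 1 library gave 29 to 58, 19 to 73, 16 to 156 and 24 to 272 in the 4 day 4 comparisons, 5 to 8 for calls on both days and 0 to 211 for the interaction (at 0, 1046 to 1084 had an unadjusted p under 0.05). In the smaller library-size class of 20 libraries, with 3 controls, 49 were called against 0 mGy/h, 40 of them among the 63. Of the 26 named calls, 10 held under all 16 alternatives and 0 reversed, and 11 were lost with surrogate variables and 12 with only the 2 groups. The first-component difference between 1 and 0 mGy/h was 31.1 to 31.4 under 3 alternatives, each with an exact permutation p of 0.429. The cause of these changes was not tested. Having 4 libraries a group limits the precision of every value.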
